A study of Mus musculus with 6 samples.

Results

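The interferon-stimulated genes and sensors described here are 47 genes chosen by symbol: interferon receptor chains, transcription factors of the interferon response, sensors of foreign nucleic acid with the adaptor STING, and genes that interferon induces. All 47 were found among the 24499 genes of the count table, and all 47 were among the 13296 that passed the filter on low counts. RNA-seq was performed on in vitro GC B cells (iGCBs), obtained by growing naïve splenic B cells for 3 days on 40LB cells. These feeder cells are irradiated (120 Gy) mouse fibroblasts that express CD40L and BAFF, and IL-4 was added at 1 ng/ml. The 3 cKO libraries came from Eif3e fl/fl Cγ1Cre Rosa26-YFP LSL cells and the 3 control libraries from cells the labels call control, given as Cγ1Cre Rosa26-YFP LSL in the study's description of its mice. Mice were on a C57BL/6J background, and their age for this culture is not given in the sources used here. Expression of Cγ1Cre follows germline γ1 transcripts, which B cells make after activation, and YFP+ cells, in which Cre had acted, were sorted from both groups. Both groups thus carried Cre and the reporter. Eif3e encodes a subunit of the translation initiation factor eIF3, and the comparison asks how transcript levels differ in activated B cells that lack it.

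Interferons alarm cells about viruses. Type I interferons bind the IFNAR1 and IFNAR2 chains, interferon gamma binds IFNGR1 and IFNGR2, and JAK kinases then phosphorylate STAT proteins. A complex that holds STAT2 and IRF9 binds the interferon-stimulated response element, whereas interferon gamma acts mainly through STAT dimers at the gamma-activated site. The induced proteins cut or trap viral RNA, block its translation, restrict viral exit or, like USP18, shut the signal down. In B cells these genes respond to interferon made by other cells, and the nucleic acid sensors can start the response from within.

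The libraries held between 39079582 and 45504570 counts each. Values are given as CPM, counts scaled to a common library size, and 3 counts then equal 0.0659 to 0.0768 CPM, a floor for counting error only. Eif3e itself measured 173, 149.8 and 152 CPM in cKO 1, 2 and 3 and 424, 401 and 392 CPM in control 1, 2 and 3, 2.56-fold lower in cKO; the counts cover the whole gene and not the deleted part alone. Groups were compared with edgeR's quasi-likelihood test with Benjamini-Hochberg adjustment over all genes tested. A gene is called where its adjusted p is under 0.05, and a log2 fold change (log2FC) is cKO over control, given with its standard error. CPM is not scaled to gene length, so levels are compared between libraries and not between genes. An exact two-sided permutation test of 3 libraries against 3 cannot give a p below 0.1. The libraries also differed in Xist, a transcript of the inactive X chromosome: cKO 2, control 1 and control 2 held between 53272 and 70912 Xist counts, and cKO 1, cKO 3 and control 3 held at most 16 and carried transcripts of Y-linked genes instead.

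Among the members, calls of higher genes outnumbered calls of lower genes, and all 3 receptor chains were lower in cKO. Of the 47 members, 17 were called higher, 6 were called lower and 24 were not called. The called-higher share was 36.2%, beside 24.1% of all genes tested, and the called-lower share was 12.8%, beside 24.5% of all genes tested. With a fold over 1.5 as well, 15 members (31.9%) were higher and 2 (4.26%) were lower, beside 10.4% and 10.6% of all genes. The 3 cKO libraries all lay above the 3 control libraries for 16 members (34.0%), beside 29.2% of all genes, and all below for 6 members (12.8%), beside 29.5%. The median log2FC of the members was 0.51, while that of all genes tested was -0.004. Positive values were found for 36 members and negative values for 11. In bulk samples, fewer cells with a transcript and less of it per cell cannot be told apart.

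**Figure D1:**
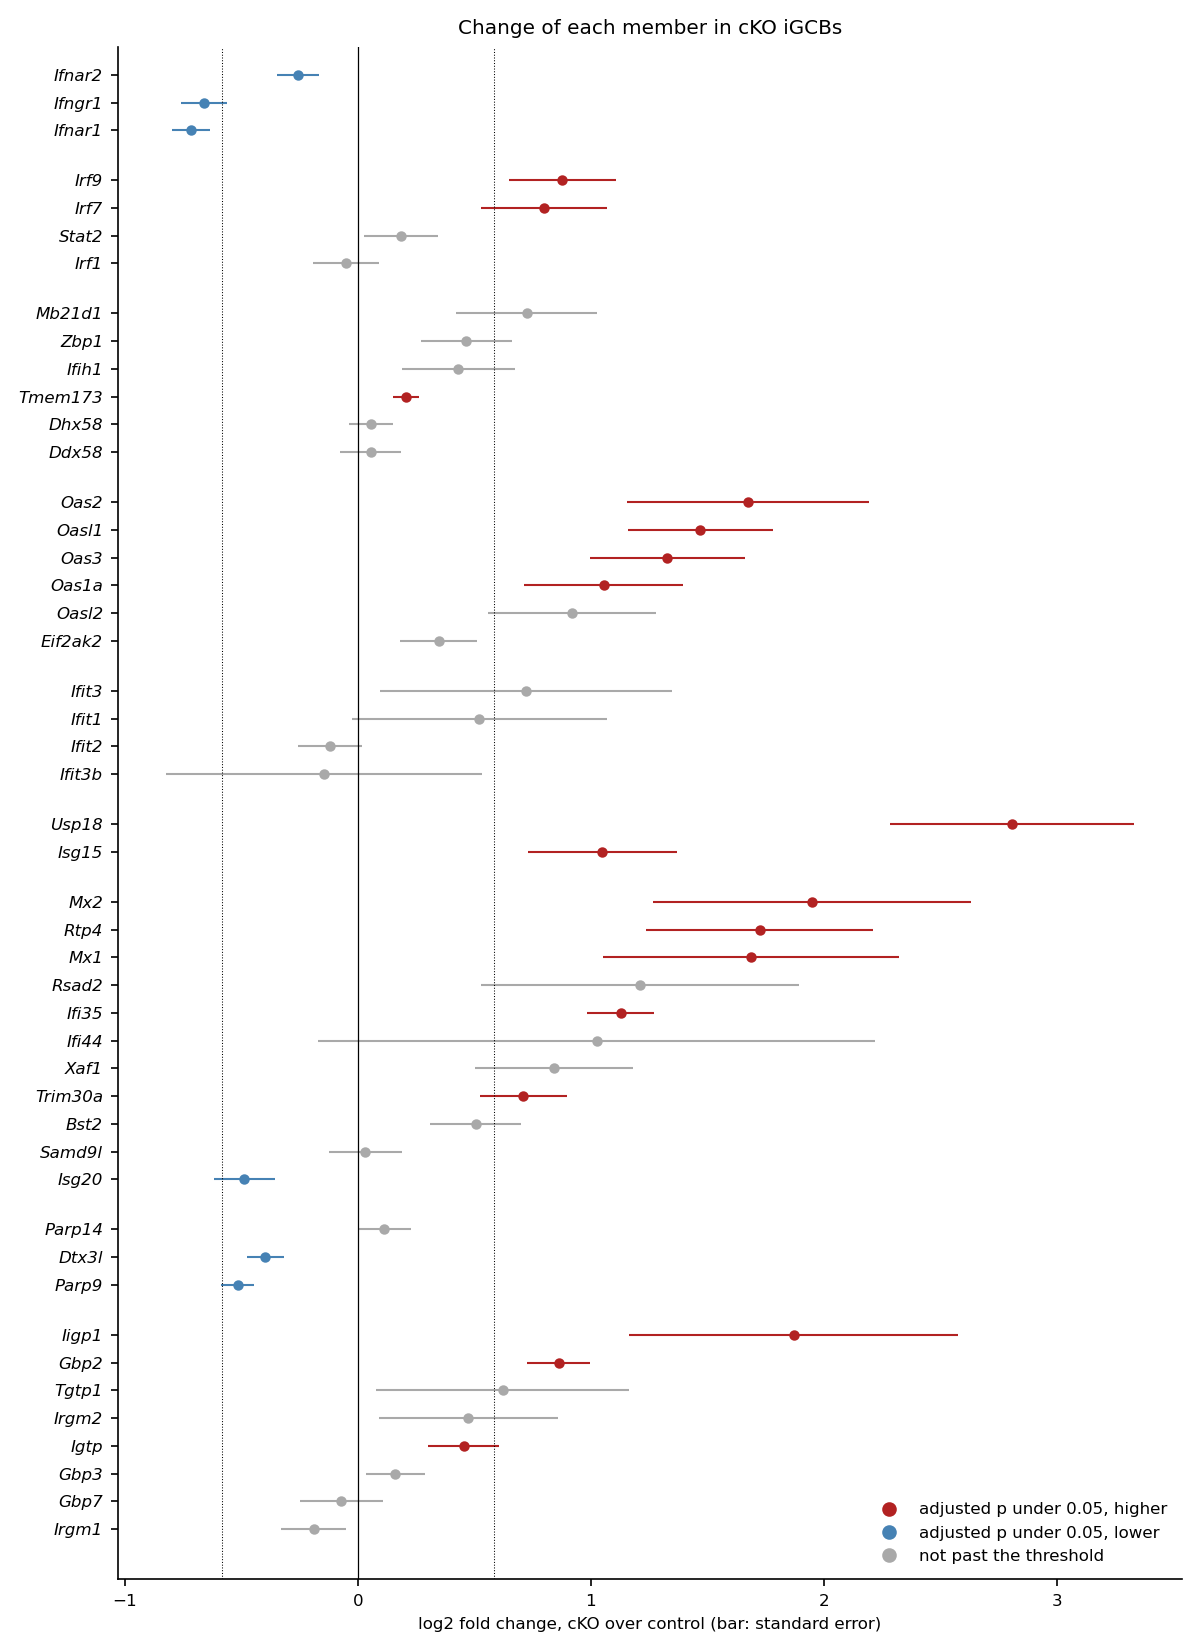
log2FC of each of the 47 members (cKO over control), grouped by role and sorted within a role; bars are standard errors and dotted lines mark a 1.5-fold change. Usp18 lies farthest to the right at 2.81, and Ifnar1 farthest to the left at -0.72.

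The members moved by library as well as by group. The mean of log2(CPM + 0.5) over the 47 genes was 3.58, 3.36 and 3.84 in cKO 1, 2 and 3 and 2.92, 2.91 and 3.46 in control 1, 2 and 3. The group means were 3.59 ± 0.24 and 3.10 ± 0.32 (SD, n = 3), and control 3 lay above cKO 2, so the groups overlapped. Control 3 was the highest control library for 37 of the 47 members, and cKO 3 was the highest cKO library for 34, with both true for 28. Among the libraries with Xist, cKO 2 lay above control 1 and control 2 for 28 members and below both for 11. Among the libraries with Y-linked transcripts, cKO 1 and cKO 3 lay above control 3 for 25 members and below it for 13. A total of 21 members lay above in both subsets and 8 lay below in both. The same counts were not made over all genes, so no background share stands beside them. With the Xist level in the fit, 15 members were called higher and 6 lower, and the median log2FC was 0.27. Igtp and Iigp1 lost the call of higher and Ifnar2 that of lower, while Irgm1 was newly called lower.

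How many members were called depended on the libraries. Without control 3, 24 members were called higher, and without any other library between 8 and 16 were, the low value being that without cKO 3 and that without control 2. Of all genes tested, 44.9% were called in either direction without control 3, beside 48.6% with all 6 libraries. Without any other library that share was between 41.1% and 43.2%. The median log2FC of the members was 0.80 without control 3. Calls of lower members numbered 5 or 6 in these fits. Of the 17 members called higher, 7 were called in each of the 6 fits that left out a library (Irf9, Oas3, Oasl1, Usp18, Trim30a, Ifi35 and Gbp2), and so were 5 of the 6 called lower (Ifnar1, Ifngr1, Isg20, Parp9 and Dtx3l). Mx1, Mx2 and Iigp1 were called with all 6 libraries or without control 3, but lost the call on leaving out any other library. With all 6 libraries, DESeq2 did not call them (adjusted p = 0.145, 0.11 and 0.0553), and edgeR without the filter on low counts did not either (adjusted p = 0.0693, 0.0527 and 0.0763). DESeq2 called 18 members higher, 14 of them among the 17, and the others were Oasl2, Eif2ak2, Bst2 and Xaf1. No called member changed sign in these fits or with any other setting tried.

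**Figure D2:**
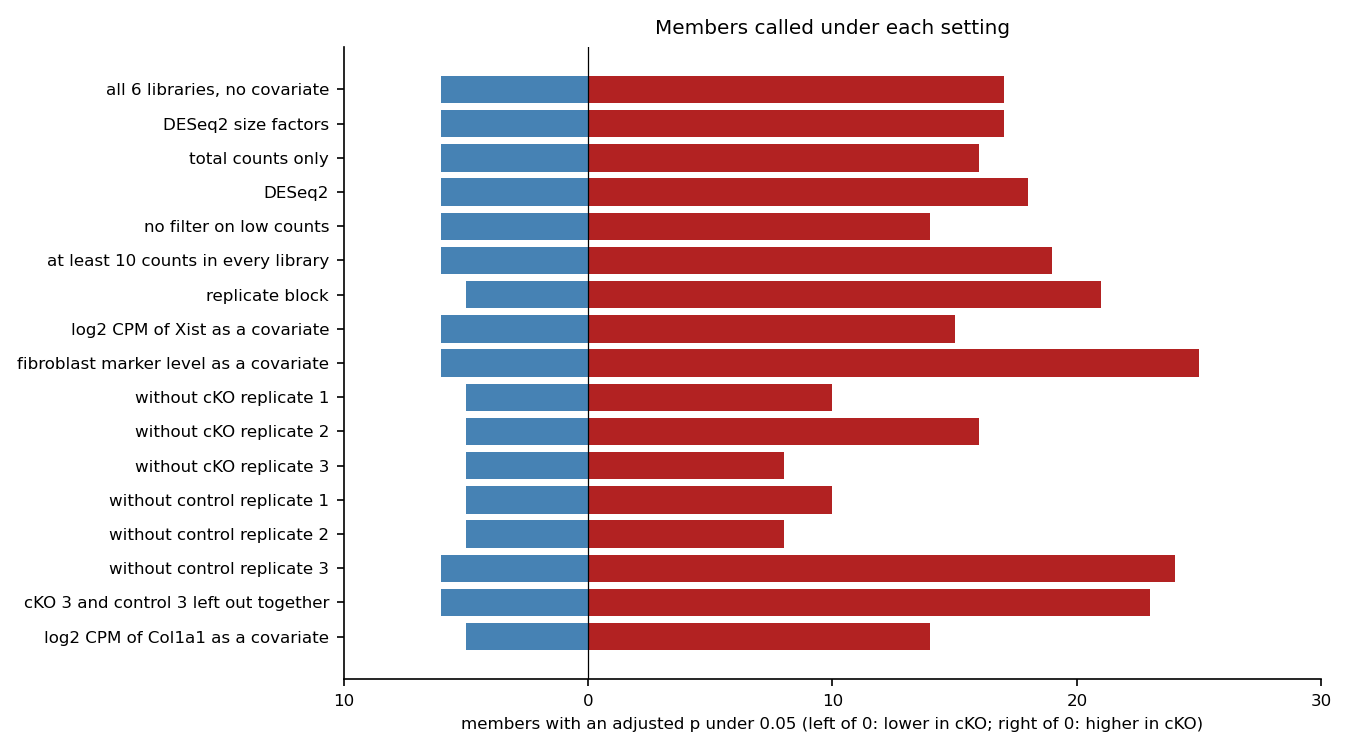
Number of members called at an adjusted p under 0.05 with each setting, higher in cKO to the right of 0 and lower to the left. Lower calls number 5 or 6 with every setting, and higher calls range from 8 to 25.

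**Figure D3:**
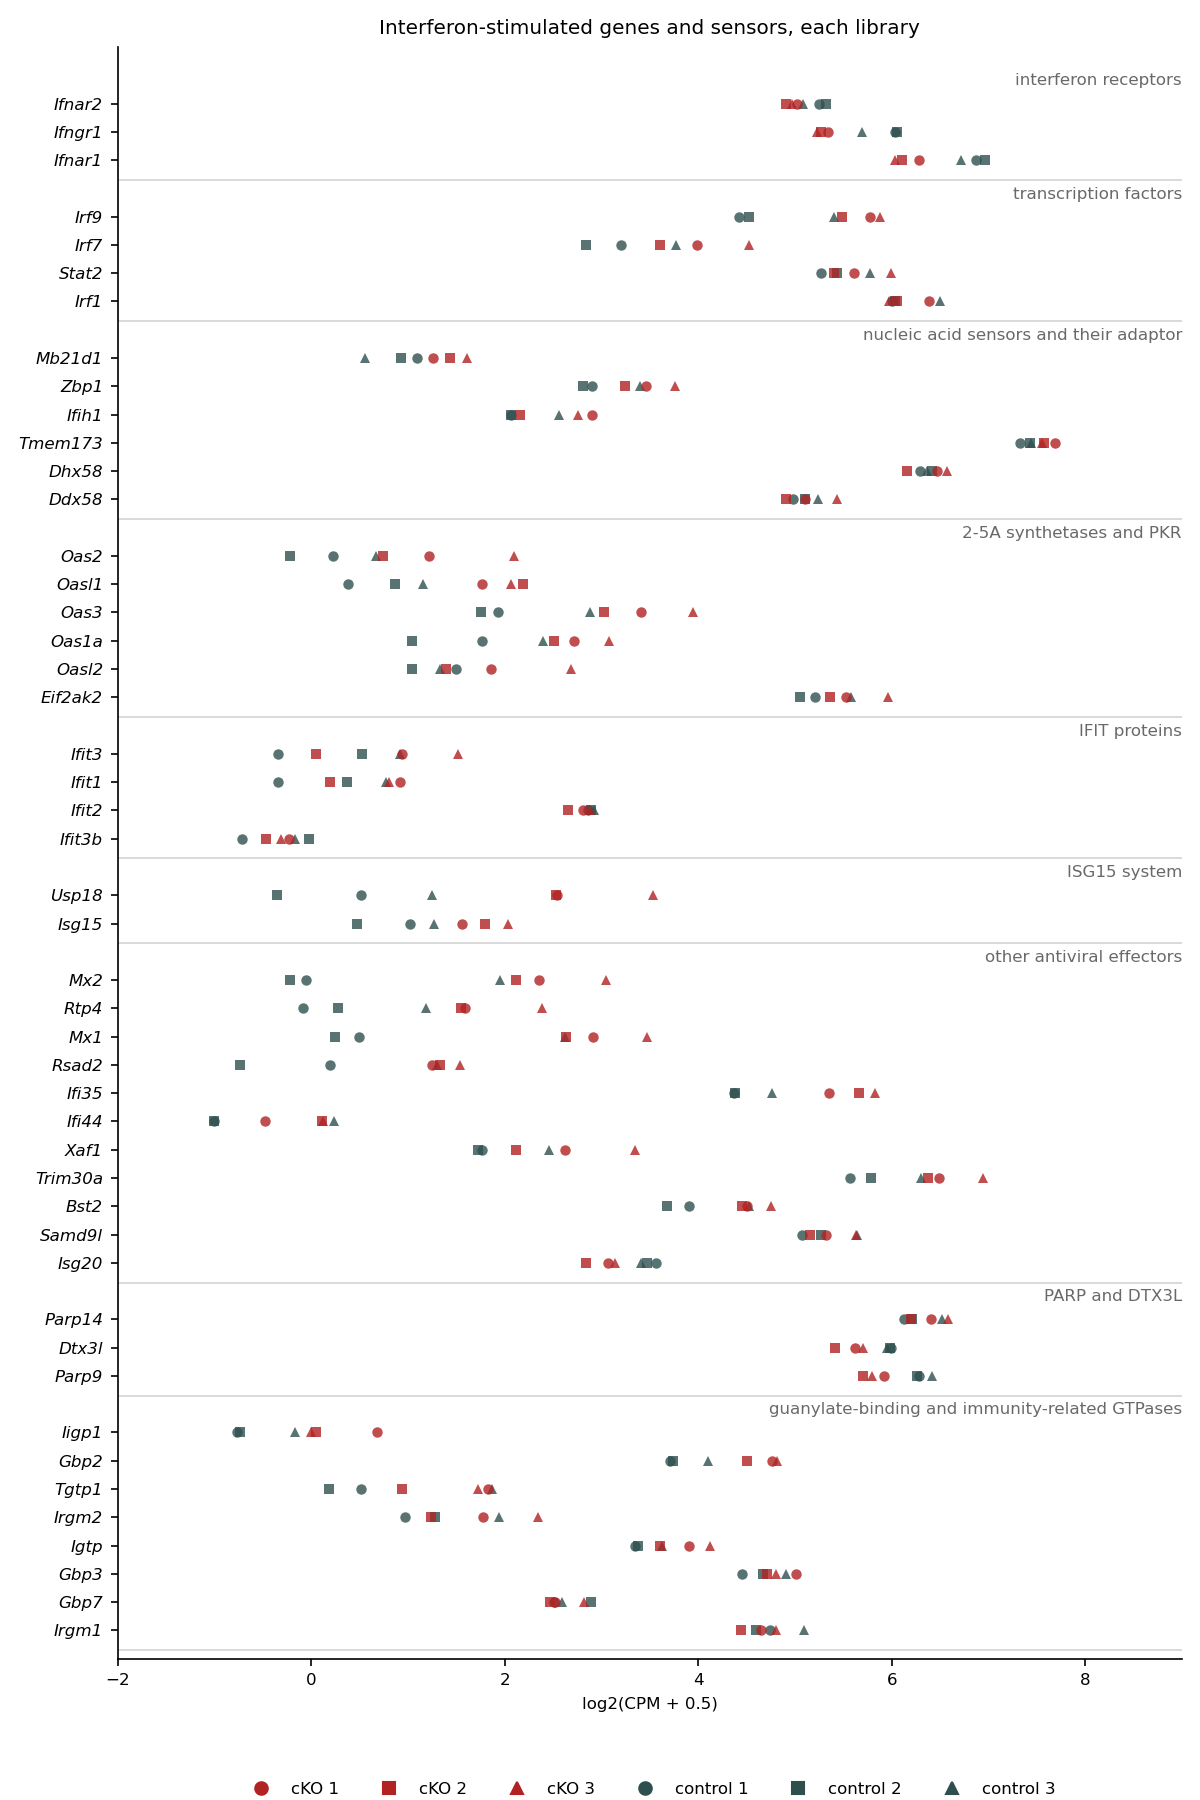
Level of each member in each library as log2(CPM + 0.5), grouped by role. Red marks are cKO and dark marks control, with circle, square and triangle for replicates 1, 2 and 3; control 3 is the control triangle that lies nearest to the cKO marks in genes such as Mx1 and Mx2.

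The sequence in front of the genes was examined because the complex that holds STAT2 and IRF9 is known to bind an element in many interferon-induced genes. RefSeq promoters on GRCm38.p6, from 250 bases before to 50 after an annotated start, were found for 36 of the 47 members. Oas2, Mx1, Mx2, Usp18, Rtp4, Dhx58, Zbp1, Parp9, Parp14, Tmem173 and Iigp1 had no entry. Both strands were searched for GAAANNGAAA, the core of the interferon-stimulated response element, and for TTCNNNGAA, the gamma-activated site, and a match to either may overlap a match to the other. The first was present in 20 of the 36 genes (55.6%) and in 3.99% of the 27025 genes with a promoter of this length. The second was present in 13 of the 36 (36.1%) and in 9.55% of all genes. Genes called higher held the first in 6 of 10 cases, genes called lower in 0 of 5 and genes not called in 14 of 21. A match in these letters is a description and not a bound site.

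The stretches of 100 bases before the start are shown for the 6 called members with a match to the first motif, in the order of their log2FC. They lie on GRCm38.p6 as follows: Oas3 at chr5:120777660-120777759 on the minus strand, Oas1a at chr5:120907526-120907625 on the minus strand, Isg15 at chr4:156200819-156200918 on the minus strand, Gbp2 at chr3:142620563-142620662 on the plus strand, Trim30a at chr7:104465194-104465293 on the minus strand, Igtp at chr11:58199456-58199555 on the plus strand. Each is written 5′ to 3′ in the direction of its gene, with the matches to the core in capitals. In Gbp2 and Trim30a the match is on the opposite strand, and it therefore reads TTTC first.
Oas3: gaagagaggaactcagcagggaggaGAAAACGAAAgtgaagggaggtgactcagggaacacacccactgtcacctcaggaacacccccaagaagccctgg
Oas1a: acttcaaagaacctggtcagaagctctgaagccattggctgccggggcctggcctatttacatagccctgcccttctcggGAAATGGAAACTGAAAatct
Isg15: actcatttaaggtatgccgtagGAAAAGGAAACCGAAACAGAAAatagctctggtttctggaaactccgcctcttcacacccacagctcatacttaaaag
Gbp2: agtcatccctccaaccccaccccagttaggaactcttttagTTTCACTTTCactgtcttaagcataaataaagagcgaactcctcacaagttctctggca
Trim30a: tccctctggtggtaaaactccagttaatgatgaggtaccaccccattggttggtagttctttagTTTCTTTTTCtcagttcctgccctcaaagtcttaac
Igtp: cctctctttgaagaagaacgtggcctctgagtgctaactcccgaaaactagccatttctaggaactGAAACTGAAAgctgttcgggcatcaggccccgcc
Trim30a has 2 promoters in the table, and the one shown has its match before the start. Isg15 has 3 overlapping matches and Oas1a has 2 in these windows, while the other windows hold 1 each.

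**Figure D4:**
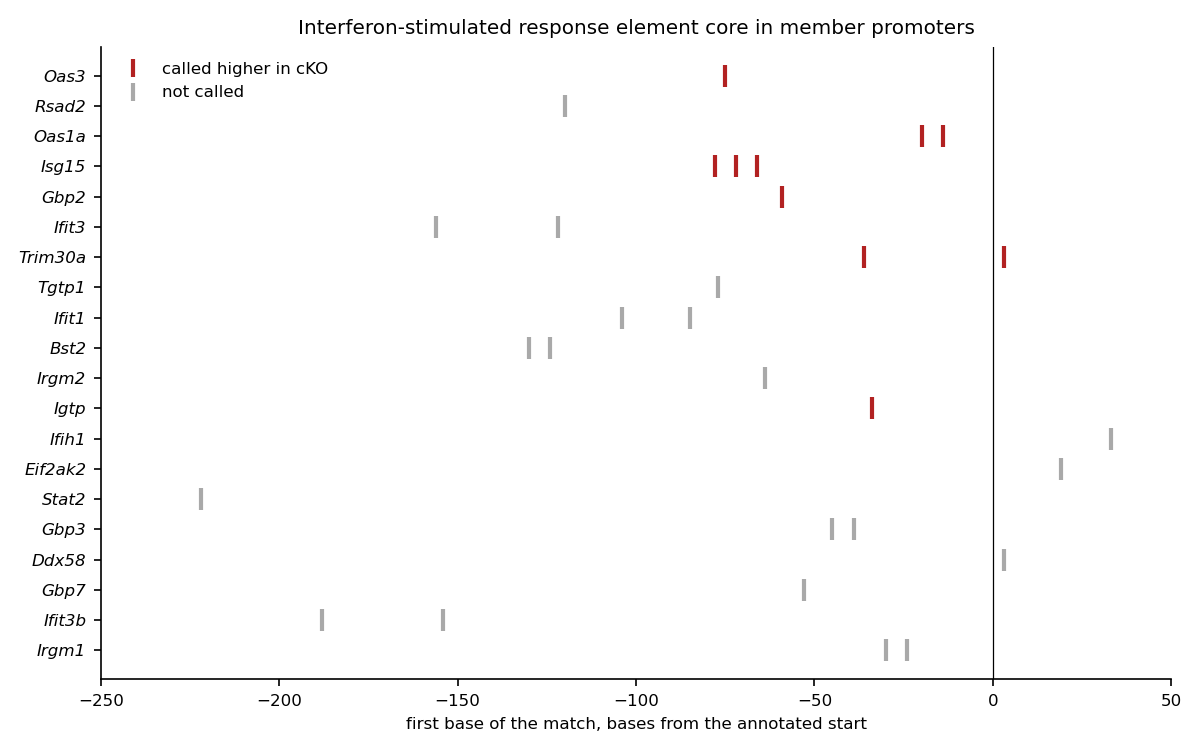
Position of each match to the interferon-stimulated response element core, in bases from the annotated start, for the 20 members that hold one, sorted by log2FC. Red marks are members called higher and grey marks members not called; matches run from -222 (Stat2) to 33 (Ifih1).

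All 3 receptor chains among the members were lower in cKO, beside 24.5% of all genes. Ifnar1, a chain of the type I interferon receptor, measured 77.2, 68.2 and 65.1 CPM in cKO 1, 2 and 3 and 117, 124 and 105 CPM in control 1, 2 and 3. The groups did not overlap, and the log2FC was -0.72 ± 0.08, adjusted p = 5.72e-05. Ifngr1, the ligand-binding chain for interferon gamma, measured 40.2, 38.2 and 37.1 CPM in cKO 1, 2 and 3 and 65.0, 66.1 and 51.3 CPM in control 1, 2 and 3. Again every cKO library was below every control library, with control 3 the lowest control, and the log2FC was -0.66 ± 0.10, adjusted p = 0.000358. Ifnar2, the partner of IFNAR1, measured 32.0, 29.4 and 30.9 CPM in cKO 1, 2 and 3 and 37.5, 39.4 and 33.3 CPM in control 1, 2 and 3. The groups stood apart by less in this gene (log2FC -0.26 ± 0.09, adjusted p = 0.0349), and the call was lost on leaving out any library other than control 3, with a replicate block, and with the Xist or the Col1a1 level as a covariate. On GRCm38, Ifnar2 and Ifnar1 are neighbours on chromosome 16 with Il10rb, a chain of the interferon lambda and IL-10 receptors, between them.

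Of the 4 transcription factors, 2 were called higher, beside 24.1% of all genes. Irf9, the DNA-binding partner of STAT2, measured 54.1, 44.4 and 58.4 CPM in cKO 1, 2 and 3 and 21.0, 22.6 and 41.9 CPM in control 1, 2 and 3. All cKO libraries were above all control libraries, control 3 being close to cKO 2, and the log2FC was 0.88 ± 0.23, adjusted p = 0.00955. Irf7, which amplifies type I interferon transcription, measured 15.4, 11.7 and 22.5 CPM in cKO 1, 2 and 3 and 8.69, 6.64 and 13.1 CPM in control 1, 2 and 3. Here control 3 exceeded cKO 2, so the groups overlapped, and the log2FC was 0.80 ± 0.27, adjusted p = 0.0326. The call on Irf7 was lost without cKO 1, cKO 3, control 1 or control 2, and without cKO 3 the log2FC was 0.51. Stat2 measured 48.4, 42.0 and 63.1 CPM in cKO 1, 2 and 3 and 38.0, 42.9 and 54.1 CPM in control 1, 2 and 3, with overlapping groups and no call (log2FC 0.18, adjusted p = 0.369). Irf1, a factor induced strongly by interferon gamma, measured 82.9, 65.8 and 62.2 CPM in cKO 1, 2 and 3 and 63.5, 65.2 and 89.9 CPM in control 1, 2 and 3. Its highest library was a control, and it was not called (log2FC -0.05, adjusted p = 0.795).

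Among the sensors and their adaptor, 1 of the 6 (16.7%), Tmem173, was called higher, beside 24.1% of all genes, and DESeq2 also called it alone. With a replicate block or the fibroblast level as a covariate Zbp1 was called higher too, and with Col1a1 as a covariate Mb21d1 was. Tmem173 encodes STING, which relays the product of the DNA sensor cGAS, and measured 205, 189.7 and 187 CPM in cKO 1, 2 and 3 and 159.5, 172 and 173 CPM in control 1, 2 and 3. Every cKO library was above every control library, by a small margin (1.15-fold higher; log2FC 0.21 ± 0.06, adjusted p = 0.0119), and the call was lost without cKO 1. Mb21d1, which encodes cGAS, measured 1.90, 2.20 and 2.55 CPM in cKO 1, 2 and 3 and 1.64, 1.40 and 0.971 CPM in control 1, 2 and 3. Its groups did not overlap either, with control 3 lowest, but it was not called (log2FC 0.72, adjusted p = 0.0709). Zbp1, a sensor of Z-form nucleic acid, measured 10.5, 8.93 and 13.1 CPM in cKO 1, 2 and 3 and 6.98, 6.49 and 10.0 CPM in control 1, 2 and 3, and cKO 2 fell below control 3 (log2FC 0.47, adjusted p = 0.0731). Without control 3, Zbp1 was called higher.

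The RNA helicases of the RIG-I family were not called by edgeR or by DESeq2, and none had an unadjusted p under 0.05. Without cKO 2, edgeR called Ifih1 higher (adjusted p = 0.0488). Ifih1, which encodes MDA5, measured 6.99, 3.98 and 6.25 CPM in cKO 1, 2 and 3 and 3.68, 3.69 and 5.39 CPM in control 1, 2 and 3 (log2FC 0.43, adjusted p = 0.173). Ddx58, which encodes RIG-I, measured 34.0, 29.6 and 42.6 CPM in cKO 1, 2 and 3 and 31.0, 33.8 and 37.3 CPM in control 1, 2 and 3 (log2FC 0.06, adjusted p = 0.757). Dhx58, which encodes the regulatory helicase LGP2, measured 88.3, 71.1 and 94.9 CPM in cKO 1, 2 and 3 and 78.1, 84.6 and 81.8 CPM in control 1, 2 and 3 (log2FC 0.06, adjusted p = 0.654). In all 3, cKO 2 was the lowest cKO library and fell below at least 1 control library. The signs of Ddx58 and Dhx58 turned negative when the Xist level was added to the fit.

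Of the 2-5A synthetase family, whose enzymes sense double-stranded RNA, 4 members rose, and with PKR, which was not called, 4 of 6 genes (66.7%) did so, beside 24.1% of all genes. Oas2 measured 1.83, 1.18 and 3.77 CPM in cKO 1, 2 and 3 and 0.665, 0.356 and 1.09 CPM in control 1, 2 and 3. Oas3 measured 10.1, 7.67 and 14.9 CPM in cKO 1, 2 and 3 and 3.30, 2.87 and 6.85 CPM in control 1, 2 and 3. Oas1a measured 6.06, 5.18 and 7.94 CPM in cKO 1, 2 and 3 and 2.90, 1.55 and 4.76 CPM in control 1, 2 and 3. In each of these genes cKO 3 was highest, control 2 was lowest and no control library reached the lowest cKO library, although control 3 came close to cKO 2. The log2FC was 1.67 ± 0.52, adjusted p = 0.0219 for Oas2. It was 1.33 ± 0.33, adjusted p = 0.00766 for Oas3. It was 1.06 ± 0.34, adjusted p = 0.0266 for Oas1a. The call on Oas2 was lost without cKO 3 (log2FC 1.09), control 1 or control 2, and that on Oas1a was lost without any library other than cKO 2 and control 3. Oasl1, a relative that lacks synthetase activity, measured 2.89, 4.07 and 3.68 CPM in cKO 1, 2 and 3 and 0.798, 1.32 and 1.72 CPM in control 1, 2 and 3 (log2FC 1.47 ± 0.31, adjusted p = 0.00296), and in it cKO 2 was the highest library. Oasl2 (log2FC 0.92, adjusted p = 0.0575) and Eif2ak2, which encodes the RNA-activated kinase PKR that blocks translation (log2FC 0.35, adjusted p = 0.11), were not called by edgeR with all 6 libraries, the filter used throughout and neither covariate nor block, whereas DESeq2 called both higher (adjusted p = 0.0377 and 0.0410). In other edgeR fits Oasl2 was called higher with at least 10 counts required in every library, with a replicate block and without cKO 2. Eif2ak2 was called higher with a replicate block, with the fibroblast covariate, without control 3 and without cKO 3 and control 3 together.

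The ISG15 system, a ubiquitin-like modifier and its protease, was represented by a pair of genes that both rose, beside 24.1% of all genes. Usp18, which removes ISG15 and dampens the type I receptor, measured 5.33, 5.29 and 11.1 CPM in cKO 1, 2 and 3 and 0.931, 0.280 and 1.87 CPM in control 1, 2 and 3. All 3 cKO libraries were far above all 3 controls, with cKO 3 the highest. Usp18 was 7.00-fold higher in cKO, the largest change among the members in the fit to all 6 libraries (log2FC 2.81 ± 0.52, adjusted p = 0.00138, and 3.54 without control 3). Isg15, the modifier itself, measured 2.45, 2.98 and 3.58 CPM in cKO 1, 2 and 3 and 1.53, 0.890 and 1.92 CPM in control 1, 2 and 3. The groups did not overlap, the log2FC was 1.05 ± 0.32, adjusted p = 0.0196, and the call was lost without cKO 2, cKO 3 or control 2.

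The 4 IFIT genes, whose products bind viral RNA ends, were not called by edgeR (0 of 4 at an unadjusted p under 0.05) or by DESeq2, beside 24.1% of all genes called higher and 24.5% lower by edgeR. Ifit2 measured 6.50, 5.80 and 6.86 CPM in cKO 1, 2 and 3 and 6.78, 6.95 and 7.07 CPM in control 1, 2 and 3, and its libraries differed little. Ifit1, Ifit3 and Ifit3b had between 0.111 and 2.36 CPM, and the groups overlapped in each. Their log2FC values were 0.52 ± 0.55, 0.72 ± 0.63 and -0.15 ± 0.68, so their standard errors exceeded 0.5. Ifit3 and Ifit3b are close copies that may share reads, and their split is uncertain.

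Of the other antiviral effectors, 5 of 11 rose (45.5%) and 1 fell (9.09%), beside 24.1% and 24.5% of all genes. Mx1, a dynamin-like GTPase, measured 7.05, 5.71 and 10.6 CPM in cKO 1, 2 and 3 and 0.908, 0.687 and 5.66 CPM in control 1, 2 and 3. Mx2 measured 4.61, 3.82 and 7.78 CPM in cKO 1, 2 and 3 and 0.465, 0.356 and 3.38 CPM in control 1, 2 and 3. In both genes control 1 and control 2 were under 1 CPM, whereas control 3 was just under cKO 2. The log2FC was 1.69 ± 0.64, adjusted p = 0.0493 for Mx1 and 1.95 ± 0.68, adjusted p = 0.0371 for Mx2. Without control 3 it was 3.28 and 3.70. Over the 6 libraries, most counts of Mx1 lay on no transcript assigned to it. Its only assigned transcript, the non-coding NR_003520, held 9, 128 and 65 counts in cKO 1, 2 and 3 and 15, 0 and 133 in control 1, 2 and 3. This transcript was not called (log2FC 0.36, adjusted p = 0.912). GENCODE annotates Mx2 on this genome as a polymorphic pseudogene. Rtp4, an inhibitor of viral replication, measured 2.51, 2.42 and 4.74 CPM in cKO 1, 2 and 3 and 0.443, 0.712 and 1.77 CPM in control 1, 2 and 3 (log2FC 1.72 ± 0.49, adjusted p = 0.014). No control reached the cKO libraries, and the call was lost without cKO 3 or control 2, while without control 3 the log2FC was 2.49.

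Ifi35, an interferon-induced leucine zipper protein, and Trim30a, a tripartite motif protein, kept their calls in each fit that left out a library. Ifi35 measured 40.4, 50.1 and 56.3 CPM in cKO 1, 2 and 3 and 20.2, 20.3 and 26.7 CPM in control 1, 2 and 3. Each cKO library was well above each control, and the gene was 2.19-fold higher (log2FC 1.13 ± 0.14, adjusted p = 0.000124). Trim30a measured 89.6, 82.7 and 122 CPM in cKO 1, 2 and 3 and 46.8, 54.9 and 78.3 CPM in control 1, 2 and 3. The groups did not overlap, cKO 3 and control 3 were the highest of their groups, and the log2FC was 0.71 ± 0.19, adjusted p = 0.00951. Isg20, an exonuclease that degrades viral RNA, went the other way and measured 7.87, 6.67 and 8.30 CPM in cKO 1, 2 and 3 and 11.3, 10.6 and 10.1 CPM in control 1, 2 and 3 (log2FC -0.49 ± 0.13, adjusted p = 0.0111), every cKO library being below every control.

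Rsad2, which encodes the antiviral enzyme viperin, and Ifi44 had log2FC values above 1 but were not called. Rsad2 measured 1.87, 2.02 and 2.40 CPM in cKO 1, 2 and 3 and 0.643, 0.102 and 1.97 CPM in control 1, 2 and 3, so control 3 lay within the cKO range (log2FC 1.21 ± 0.68, adjusted p = 0.171). Ifi44 had 10, 26 and 25 counts in cKO 1, 2 and 3 and 0, 0 and 28 counts in control 1, 2 and 3. Its highest library was thus control 3, and the log2FC was 1.02 ± 1.19, adjusted p = 0.512. With single libraries left out, the log2FC of Ifi44 ranged from 0.42 to 7.34. Bst2, which encodes tetherin, had 22.1, 21.4 and 26.4 CPM against 14.5, 12.3 and 22.5 CPM in cKO and control 1, 2 and 3 (log2FC 0.51, adjusted p = 0.0556). Xaf1 and Samd9l had log2FC values of 0.84 and 0.03 and were not called by edgeR with all 6 libraries, the filter used throughout and neither covariate nor block. DESeq2 called Xaf1 and Bst2 higher (adjusted p = 0.0265 and 0.0155). So did edgeR with at least 10 counts required in every library, with a replicate block and with the fibroblast covariate. Without control 3, Bst2, Rsad2, Ifi44 and Xaf1 were each called higher.

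Parp9 and Dtx3l, which encode an ADP-ribosyltransferase and a ubiquitin ligase that work as a complex in interferon signalling, both fell, beside 24.5% of all genes. Parp9 measured 59.9, 51.5 and 55.1 CPM in cKO 1, 2 and 3 and 77.4, 76.2 and 84.6 CPM in control 1, 2 and 3 (log2FC -0.52 ± 0.07, adjusted p = 0.000234). Dtx3l measured 48.8, 42.1 and 51.4 CPM in cKO 1, 2 and 3 and 63.2, 62.9 and 61.3 CPM in control 1, 2 and 3 (log2FC -0.40 ± 0.08, adjusted p = 0.0023). In both, every cKO library was below every control library. The genes lie head to head on chromosome 16 and their annotated ends share 682 bases on opposite strands. The sources used here do not state whether counting used strand, so reads from the shared part may be assigned to either. Parp14, from the same region, was not called (log2FC 0.11, adjusted p = 0.446).

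Of the 8 guanylate-binding and immunity-related GTPases, which attack vacuoles that hold pathogens, 3 rose (37.5%), beside 24.1% of all genes, and the calls on Igtp and Iigp1 were lost in most fits that left out a library. Gbp2 measured 26.6, 22.3 and 27.6 CPM in cKO 1, 2 and 3 and 12.5, 12.8 and 16.7 CPM in control 1, 2 and 3. All cKO libraries were above all controls, and the log2FC was 0.86 ± 0.14, adjusted p = 0.000468. Igtp measured 14.5, 11.6 and 16.9 CPM in cKO 1, 2 and 3 and 9.64, 9.90 and 11.9 CPM in control 1, 2 and 3. Control 3 edged above cKO 2, the log2FC was 0.45 ± 0.15, adjusted p = 0.0311, and the call was lost without cKO 1, cKO 3, control 1 or control 2. Iigp1 was sparse, with 50, 24 and 21 counts in cKO 1, 2 and 3 and 4, 4 and 16 counts in control 1, 2 and 3, or 1.10, 0.533 and 0.495 CPM against 0.0886, 0.102 and 0.389 CPM. The groups did not overlap, and the log2FC was 1.87 ± 0.71, adjusted p = 0.0497, or 2.87 without control 3. The other 5 (Gbp3, Gbp7, Irgm1, Irgm2 and Tgtp1) were called by neither edgeR nor DESeq2 with all 6 libraries and no covariate, with log2FC values from -0.19 in Irgm1 to 0.62 in Tgtp1. Tgtp1 was called higher without control 3, without cKO 3 and control 3 together and with the fibroblast covariate, and Irgm1 was called lower with the Xist covariate. Igtp and Irgm2 overlap by 7974 bases in the annotation and Tgtp1 has a close copy, Tgtp2, so their counts are uncertain.

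Other genes of the pathway were counted from lists of ligands, signal carriers and regulators. In the following sentences, values joined by "against" are those of cKO 1, 2 and 3 and then those of control 1, 2 and 3. Not 1 of 21 interferon genes passed the filter, and 17 were at 0 counts in all 6 libraries. Ifng had 7, 8 and 0 counts in cKO 1, 2 and 3 and 0, 0 and 3 counts in control 1, 2 and 3. Ifnk had 4, 4 and 2 counts in cKO and 0, 0 and 2 counts in control. Ifna7 had 3 counts in control 3 alone and Ifnz had 2 counts in control 1 alone. No interferon gene thus exceeded 8 counts in any library.

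Of 12 other receptor chains, JAK kinases and STATs, 3 were called higher (25.0%) and 8 lower (66.7%), beside the 24.1% and 24.5% of all genes. Stat5a, which acts downstream of many cytokines, measured 136, 141 and 134 CPM against 86.0, 90.9 and 77.7 CPM (log2FC 0.69, adjusted p = 1.87e-05). Lower genes were Ifnlr1, the specific chain of the interferon lambda receptor (log2FC -0.86), Il10rb (-0.68), Stat4 (-0.67) and the kinase Jak2 (-0.62). Il10rb measured 19.1, 15.6 and 17.2 CPM against 28.3, 27.0 and 27.6 CPM and Jak2 measured 90.4, 79.9 and 91.6 CPM against 138, 128 and 136 CPM, with no overlap in either gene.

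**Figure D5:**
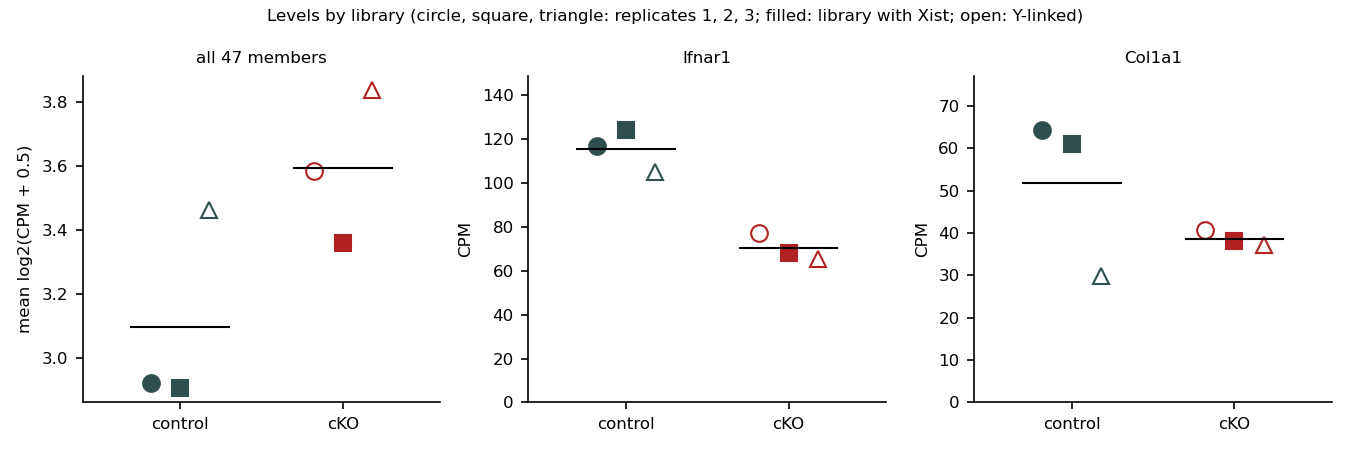
Level in each library of the 47 members (mean log2(CPM + 0.5)), of Ifnar1 and of the feeder cell gene Col1a1 (CPM); lines are group means of 3 libraries. Filled marks are libraries with Xist and open marks those with Y-linked transcripts; control 3, the open control mark, is highest of the controls for the members and lowest of them for Ifnar1 and Col1a1.

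Of 8 other IRF genes and IRF-binding proteins, 2 were higher (25.0%) and 2 lower (25.0%), close to the 24.1% and 24.5% of all genes. Irf2bp1, a corepressor partner of IRF2, was 2.10-fold higher at 36.9, 43.7 and 40.5 CPM against 19.6, 19.4 and 18.7 CPM (log2FC 1.07, adjusted p = 9.16e-06). Of 12 feedback inhibitors of cytokine and interferon signalling, 6 were higher (50%) and 3 lower (25.0%), beside 24.1% and 24.5% of all genes. Socs3, a suppressor of cytokine signalling, measured 57.2, 97.4 and 99.5 CPM in cKO 1, 2 and 3 and 19.1, 22.9 and 22.3 CPM in control 1, 2 and 3 (log2FC 1.98, adjusted p = 1.83e-05). Cish, a SOCS family member that STAT5 induces, measured 36.1, 48.4 and 39.9 CPM against 11.6, 17.5 and 14.5 CPM (log2FC 1.51, adjusted p = 3.27e-05), and Socs2 had a log2FC of 0.69. The groups did not overlap in these genes. Pias1, an inhibitor of STAT signalling, was lower at 33.8, 33.2 and 39.9 CPM against 61.7, 63.0 and 54.0 CPM (log2FC -0.74, adjusted p = 0.000122).

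Nucleic acid sensing showed changes in both directions. Of 21 adaptors, kinases and receptors tested, 6 were higher (28.6%) and 7 lower (33.3%), beside 24.1% and 24.5% of all genes. Tlr7, the endosomal receptor for single-stranded RNA, measured 82.1, 72.8 and 82.4 CPM in cKO 1, 2 and 3 and 44.7, 43.0 and 62.5 CPM in control 1, 2 and 3 (log2FC 0.66, adjusted p = 0.00175). Tlr9, the receptor for CpG DNA, measured 27.5, 24.7 and 25.1 CPM in cKO 1, 2 and 3 and 45.3, 54.1 and 65.7 CPM in control 1, 2 and 3 (log2FC -1.10, adjusted p = 6.18e-05). The groups stood apart in both genes, in opposite directions. Tlr3, the receptor for double-stranded RNA, was sparse at 0.837, 0.800 and 1.06 CPM against 0.177, 0.560 and 0.219 CPM (adjusted p = 0.0485), and its call was lost without any library other than control 2, where the log2FC was 2.16. Ticam1, the adaptor of TLR3, had a log2FC of -0.86, and Nlrx1, a mitochondrial regulator of MAVS, of -1.16. Of 11 enzymes that remove or edit the cell's own nucleic acids, 3 were higher (27.3%) and 5 lower (45.5%), beside the same shares of all genes. Enpp1, which degrades the STING ligand, measured 30.6, 25.6 and 30.9 CPM against 59.9, 46.0 and 51.3 CPM (log2FC -0.85, adjusted p = 0.00016). Dnase2a, a lysosomal DNase, was lower, with a log2FC of -0.80.

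A further 70 interferon-stimulated genes outside the 47 were counted, of which 61 were tested. Of these, 19 were higher (31.1%) and 12 lower (19.7%), beside 24.1% and 24.5% of all genes, and the median log2FC was 0.27. Gbp6, another guanylate-binding protein, measured 5.95, 4.80 and 8.79 CPM in cKO 1, 2 and 3 and 1.40, 0.661 and 1.97 CPM in control 1, 2 and 3 (log2FC 2.27, adjusted p = 0.000544). The chemokine Ccl5 measured 1.94, 2.49 and 2.40 CPM against 0.576, 0.687 and 0.850 CPM (log2FC 1.69, adjusted p = 0.00143), and every cKO library exceeded every control for both genes. Parp12, an ADP-ribosyltransferase, had a log2FC of 1.43, and its call was lost without cKO 1, cKO 3 or control 1. Phf11d was near the floor in control at 1.61, 0.378 and 0.377 CPM against 0, 0 and 0.170 CPM, and its call was lost without cKO 1, control 1 or control 2. Lower genes included Ifit1bl1, a relative of Ifit1, at 0.375, 0.489 and 0.330 CPM against 2.19, 2.19 and 1.41 CPM (log2FC -2.27, adjusted p = 0.000775), Oas1c, a neighbour of Oas1a and Oas3 on chromosome 5 (log2FC -0.80, adjusted p = 0.00191), Ifitm2 (log2FC -0.80) and the sparse Ms4a4b (log2FC -1.78). Of the fits that left out a library, only those without cKO 1 or control 3 called Ifitm2. The call on Ms4a4b was lost on leaving out any library. So Oas1c fell while Oas1a, Oas2 and Oas3 beside it rose.

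Markers of other cells were read beside these results. The 6 B cell genes in the table were present in every library, 3 of them higher in cKO, such as Pax5, and 3 lower, such as Cd79a. Of 3 GC B cell genes, 1 was higher and 2 were lower. Of 4 plasma cell genes, Jchain, Xbp1 and Prdm1 were lower and Sdc1 was higher, and the median log2FC was -1.12. Their summed level was 164, 174 and 159 CPM in cKO 1, 2 and 3 and 479, 434 and 378 CPM in control 1, 2 and 3, so the groups stood well apart. Jchain, which links immunoglobulin chains in secreted polymers, measured 9.94, 5.98 and 5.82 CPM against 138, 125 and 86.2 CPM. Of 13 feeder fibroblast genes, 10 were tested, 3 were higher in cKO (Col5a1, Fn1 and Fbn1), 0 were lower and Lum and Postn were at 0. Their summed level was 108, 112 and 100.3 CPM in cKO 1, 2 and 3 and 115, 111 and 56.8 CPM in control 1, 2 and 3. Fbn1 had 207, 139 and 172 counts in cKO 1, 2 and 3 and 0 in each control library. Col1a1, a collagen gene of the list, measured 40.8, 38.1 and 37.2 CPM against 64.3, 60.9 and 29.8 CPM. Control 3 thus had the lowest fibroblast level and the highest member level of the controls. With the fibroblast level added to the fit, 25 members were called higher and 6 lower, with a median log2FC of 0.96. That level averages the listed genes, including Col5a1, Fn1 and Fbn1, which were higher in cKO, so it can partly follow the groups. With Col1a1 alone 14 and 5 were called, with a median of 0.32. Of all genes tested, 40.0% were called in either direction with the fibroblast level and 45.8% with Col1a1, beside 48.6% without a covariate. All 17 members called higher had a positive log2FC with either covariate, but with Col1a1 only 12 of them were called. Igtp, Iigp1, Irf7, Isg15 and Oas2 lost the call, Ifi44 and Mb21d1 gained one, and Ifnar2 was no longer called lower. Of 5 dendritic cell genes, Siglech, which marks plasmacytoid dendritic cells, was at 0 in all libraries, and Zbtb46 was higher in cKO at 24.9, 21.8 and 24.9 CPM against 15.8, 13.1 and 11.3 CPM. The summed level of the list, most of it Zbtb46, was 23.1 to 26.2 CPM in cKO and 12.3 to 17.2 CPM in control. The other gene of the list that was tested was not called and had a negative log2FC. Of 8 macrophage and neutrophil genes, Cd14, S100a8 and S100a9 were at 0, and Adgre1 was higher at 3.64, 4.67 and 5.54 CPM against 0.620, 0.916 and 2.02 CPM. That list, most of it Adgre1, summed to between 4.09 and 6.12 CPM in cKO and between 1.21 and 2.44 CPM in control. Its other tested gene was not called and had a negative log2FC. The 7 T and NK cell genes summed to at most 0.809 CPM in any library, with Cd3e, Ncr1 and Nkg7 at 0 throughout. The part of plasma cell genes and of cells with Zbtb46 or Adgre1 in the member values was not tested.

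Estimated counts per RefSeq transcript gave 67 transcripts for the 47 genes, and 34 of the genes had 1 transcript each. The assigned transcripts summed to the gene's counts in every library for 46 of the 47 genes, Mx1 being the exception at 26.4%. Of 59 tested, 5 were called higher and 4 lower, smaller shares than the 12.4% and 12.7% of all transcripts tested. The larger share of higher calls among the member genes was thus not seen among their transcripts. The higher transcripts were those of Usp18, Oasl1, Ifi35, Gbp2 and the main form of Tmem173, and the lower ones those of Ifnar1, Ifngr1, Parp9 and Dtx3l. Of the 8 member genes with at least 2 transcripts tested, edgeR's diffSpliceDGE called 0 for a change in transcript use, beside 1.37% of all such genes. At an unadjusted p under 0.05 it also found 0 of these 8, and no other tool was run for transcript use.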

How the data were processed

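Genes were compared between 3 cKO and 3 control libraries of sorted day 3 iGCBs, grouped by the sample titles. The authors aligned trimmed reads (HISAT2), quantified them (StringTie) and deposited tables of whole-number estimated counts made with StringTie's extraction script, for genes and for RefSeq transcripts. The build, mm10, is from the submitters' processing notes, and tool versions are not given in the sources used here.

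Here, genes kept by filterByExpr (minimum count 10) were scaled by TMM and tested with edgeR 4.0.16 (glmQLFit, glmQLFTest) in R 4.3.3, without covariates. DESeq2 1.42.0, the study's tool, was an alternative. The other alternatives were other scalings and filters, each library left out, a replicate block, and the levels of Xist and of fibroblast genes as covariates. The Col1a1 covariate was added after seeing the data. The table held no immunoglobulin genes, so leaving them out could not be tried. Transcripts were assigned to genes with a RefSeq table of GRCm38.p6, which matched 34674 of 36026, and gene positions are from GENCODE M21. The fits were tested on simulated data, in which the transcript use test made somewhat more false calls than its threshold allows.

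The members and lists were chosen with earlier results of these data known. Each library's value is given for members with an adjusted p under 0.05 or a log2FC over 1 in size and for receptors, transcription factors and sensors. Of the other lists, at most 4 genes a direction past both cutoffs (adjusted p under 0.05, fold over 1.5) are named, and some that met this rule are not reported here. The p-values measure the spread between these 3 libraries a group.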

Additional observations from a re-analysis of the deposited data

How the results depend on the processing

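The median of log2 fold changes over the members stayed positive throughout, at 0.27 with the Xist, 0.32 with the Col1a1 and 0.96 with the fibroblast level as a covariate, and ranged from 0.35 to 0.80 without single libraries. No called member changed sign. Without single libraries, 8 to 24 members were called higher, and 6 to 21 with a fold over 1.5. With the fibroblast level as a covariate, 23 members were higher past a fold of 1.5. A test that the change exceeds 1.5-fold called 3 higher and 0 lower, and with Col1a1 as a covariate 1 was lower past that fold. With a replicate block, 21 members were higher and 5 lower, 16 and 5 of them shared with the fit without it. The labels give no pairing between the replicate numbers of the groups. Correlations of same-numbered libraries' deviations were 0.003, 0.11 and 0.20 for numbers 1, 2 and 3. Not every library correlated best with its own number, but cKO 3 and control 3 did. With 3 libraries a group these values cannot decide whether the samples were paired. Of member transcripts, 12 were higher by DESeq2, 3 with no filter, 3 with the Xist covariate, 10 with the fibroblast covariate and 2 to 12 with a library left out.

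Only members that were not called changed sign, 8 in all. With the fibroblast covariate the log2 fold change was 0.21 for Irf1, 0.19 for Ifit3b and 0.0562 for Irgm1. With the Xist covariate it was -0.0558 for Ddx58, -0.0217 for Dhx58, -0.11 for Samd9l and -0.00398 for Parp14. With cKO 3 and control 3 both left out it was 0.21 for Irf1, -0.0261 for Ddx58 and -0.0272 for Dhx58, and with the Col1a1 covariate -0.00937 for Ddx58 and -0.10 for Samd9l. With single libraries left out it ranged from -0.19 to 0.13 for Irf1, -0.10 to 0.17 for Ddx58, -0.0317 to 0.17 for Dhx58, -0.56 to 0.23 for Ifit3b, -0.11 to 0.21 for Samd9l and -0.20 to 0.0582 for Gbp7. The cause was not tested. Below about 1 CPM, as in Ifi44, Ifit3b and Iigp1, standard errors were over 0.5.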

Other observations

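The split of counts between RefSeq transcripts varied between libraries of the same group for some members. Of the 3 Irf9 transcripts, NM_001159417 held 85.1%, 29.0% and 30.5% of the gene's counts in cKO 1, 2 and 3 and 46.1%, 43.9% and 25.6% in control 1, 2 and 3. NM_008394 held 4.07%, 17.8% and 29.4% in cKO and 51.8%, 1.58% and 61.2% in control. Libraries of the same group thus differed widely, and Irf9 was not called for transcript use (adjusted p = 1.00, edgeR's diffSpliceDGE). Ifnar2 was steady by comparison, with NM_010509 holding between 56.9% and 64.1% in every library.

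The counts of Mb21d1 lay on a non-coding transcript, NR_125721, in the 3 cKO libraries and in control 1 and control 2. Control 3 had 26 counts on the coding NM_173386 and 14 on NR_125721. The gene's estimated counts in the other 5 libraries therefore carried no count assigned to the coding form.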
